A study of Mus musculus with 2 samples.

Results

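The peaks described here were the 500 regions of open chromatin with the highest level in germ nuclei relative to all other nuclei of the E14.5 mouse testis. Chromatin accessibility was read as cuts, the places where the Tn5 transposase had inserted a sequencing adapter. Nuclei were kept with 2000 to 50000 unique RNA molecules (UMIs), under 10% of UMIs from mitochondrial genes and more than 500 cuts in peaks, which left 7492 of 9833 barcodes. The 700 nuclei with the largest share of UMIs from Ddx4, Dazl, Dnd1, Mael, Sycp1, Tex14, Morc1 and Stk31 formed the germ group, and the other 6792 nuclei formed the rest. The cuts of each peak were summed per group and scaled to counts per 1000000 peak cuts of that group (CPM). Of 109215 peaks in all, 106565 lay on the 19 autosomes and 65844 of these held 100 or more cuts. The members were the 500 of these 65844 (0.759%) with the largest ratio of germ CPM plus 1 to rest CPM plus 1, so that their germ and rest levels are what chose them and are given below as a description only.

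Whole testes had been collected at E14.5 from embryos of a cross of homozygous Nr5a1-cre mice with homozygous Rosa-tdTomato females and were frozen in liquid nitrogen. Nr5a1-cre drives recombination in somatic gonadal cells, so the cross does not mark germ cells. The number of embryos behind the libraries was not stated. RNA and open chromatin were read from the same nuclei, with 1 library of each, so there was no replicate and no test. The intervals below are exact 95% limits. For sums of cuts they cover counting error only, and for shares of members they treat the members as independent draws.

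Germ cells of the fetal testis descend from primordial germ cells, which pass through an erasure of DNA methylation and then, as prospermatogonia, stop dividing and set methylation anew. Many of their genes have promoters that DNA methylation keeps silent in somatic cells, among them genes of the synaptonemal complex, which joins homologous chromosomes in meiosis, and of the piRNA pathway, in which small RNAs bound by PIWI proteins silence transposons. The E-box CACGTG is read by bHLH factors such as MYC, MAX, USF and MGA, the CCAAT box by the trimer NFY, and NRF1 binds a GC-rich palindrome found in many promoters of meiotic and housekeeping genes.

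The labelled cell type was checked in the RNA. Of 12 germ genes that had no part in the choice of nuclei, 9 were at least 2-fold higher in the germ group than in the rest, 1 (Kit, the receptor of stem cell factor) was at least 2-fold lower, and their summed level was 845 against 183 CPM of RNA, which are UMIs scaled as the cuts were. Of 29 markers of Sertoli, Leydig, interstitial, surface epithelial, endothelial and immune cells, 0 were at least 2-fold higher and 22 were at least 2-fold lower in the germ group, where they summed to 502 against 2370 CPM of RNA and none was at 0. The endothelial marker Pecam1 (39.1 against 21.3 CPM of RNA) and the immune marker Cx3cr1 (17.4 against 10.9) were higher in the germ group, and the others were lower. The germ group had more RNA per nucleus than the rest (median 14765 against 7806 UMIs) at a like depth of cuts (median 3281.5 against 3308.5). The limit of 700 nuclei did not fall at a gap: the share of UMIs from the 8 genes was 0.473% at rank 700, 0.280% at rank 1000 and 0.0299% at rank 1300. The rest therefore held nuclei with germ RNA. Below, the 300 nuclei after the germ group in this ranking (down to rank 1000) are called the next 300, and the 300 after those (down to rank 1300) the following 300. The next 300 also had the most UMIs (median 19242.5) and a share of UMIs from the somatic markers (median 0.0860%) between those of the germ group (0.0398%) and of nuclei past rank 1300 (0.228%). No doublets were removed, and the part of nuclei that hold both a germ and a somatic cell was not tested.

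The sequences at 8 members that cover the start of a germ gene are shown because the letters discussed below can be read in them. Each is the stretch of 150 bases before the transcription start, 5′ to 3′ on the strand of the gene, from the RefSeq promoter table of build GRCm38.p6 (the mm10 assembly of the files). Capitals mark the E-box letters CACGTG, the NFY letters AGCCAAT or their reverse complement, and the NRF1 letters GCGCATGCG with any overlapping match. Of the 26 listed germ genes with a member at the start, 24 were found in that table, and these 8 are the genes whose stretch held such a match and no exon.
Syce1, chr7:140787855-140788004, minus strand: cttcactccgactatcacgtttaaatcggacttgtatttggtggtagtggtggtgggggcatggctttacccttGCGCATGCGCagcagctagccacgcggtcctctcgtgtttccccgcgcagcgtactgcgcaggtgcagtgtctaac
Sycp1, chr3:102936101-102936250, minus strand: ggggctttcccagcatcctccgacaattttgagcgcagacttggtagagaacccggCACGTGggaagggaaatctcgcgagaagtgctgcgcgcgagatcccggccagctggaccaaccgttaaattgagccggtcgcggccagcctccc
Rec114, chr9:58741560-58741709, minus strand: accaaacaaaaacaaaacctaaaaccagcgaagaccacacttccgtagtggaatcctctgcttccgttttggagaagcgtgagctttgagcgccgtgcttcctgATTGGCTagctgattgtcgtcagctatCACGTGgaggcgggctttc
Meioc, chr11:102665435-102665584, plus strand: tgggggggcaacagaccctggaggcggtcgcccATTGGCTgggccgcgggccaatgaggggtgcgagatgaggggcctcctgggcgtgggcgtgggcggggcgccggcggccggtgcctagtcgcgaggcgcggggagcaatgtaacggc
Stk31, chr6:49395389-49395538, plus strand: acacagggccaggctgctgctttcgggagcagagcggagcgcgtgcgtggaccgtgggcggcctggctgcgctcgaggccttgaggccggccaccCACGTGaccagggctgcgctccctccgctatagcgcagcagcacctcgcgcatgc
Fkbp6, chr5:135350045-135350194, minus strand: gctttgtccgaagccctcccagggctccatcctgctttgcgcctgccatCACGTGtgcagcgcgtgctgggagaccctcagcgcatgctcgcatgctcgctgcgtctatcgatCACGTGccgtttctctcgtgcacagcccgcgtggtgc
Tdrd9, chr12:111971409-111971558, plus strand: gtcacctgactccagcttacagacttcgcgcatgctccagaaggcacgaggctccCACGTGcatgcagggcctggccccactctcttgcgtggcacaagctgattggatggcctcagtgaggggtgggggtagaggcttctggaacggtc
Tex101, chr7:24672051-24672200, minus strand: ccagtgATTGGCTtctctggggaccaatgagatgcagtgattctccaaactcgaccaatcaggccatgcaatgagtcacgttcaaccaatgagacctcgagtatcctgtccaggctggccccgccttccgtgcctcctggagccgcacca

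In these stretches Fkbp6, a cochaperone of the piRNA pathway, held 2 separate E-boxes, and Rec114, a partner in the formation of meiotic breaks, held both an E-box and the NFY letters. Sycp1, which makes the transverse filament of the synaptonemal complex, Stk31, a Tudor-domain protein of germ cells, and Tdrd9, a helicase of the piRNA pathway, each held an E-box. Syce1, a central element protein of the same complex, held the NRF1 palindrome.

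Away from gene starts, the 300 central bases of 4 members show the same letters. They are the 4 members of the largest ratio among those farther than 1 kb from a start, without an aligned copy in the set, that held the E-box letters, the NFY letters or the POU octamer, and they were picked after their values were known. Capitals mark these letters, and the sequences are from the plus strand of GRCm38.p6.
Rank 18, intron of Mtus2, chr5:148191474-148191773, plus strand: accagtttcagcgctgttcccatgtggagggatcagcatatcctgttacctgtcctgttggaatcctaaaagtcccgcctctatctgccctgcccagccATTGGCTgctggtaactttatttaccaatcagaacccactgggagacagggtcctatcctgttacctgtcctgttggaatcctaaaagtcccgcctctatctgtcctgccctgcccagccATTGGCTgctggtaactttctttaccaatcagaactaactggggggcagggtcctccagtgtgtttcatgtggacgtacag
Rank 19, nearest start 4930573I07Rik, chr5:128537225-128537524, plus strand: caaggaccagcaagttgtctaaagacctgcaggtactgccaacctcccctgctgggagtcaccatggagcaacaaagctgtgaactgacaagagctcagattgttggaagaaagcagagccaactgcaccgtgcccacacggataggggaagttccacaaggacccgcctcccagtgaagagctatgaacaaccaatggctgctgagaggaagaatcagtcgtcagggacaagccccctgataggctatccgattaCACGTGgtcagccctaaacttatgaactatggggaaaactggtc
Rank 22, nearest start Ust, chr10:8580364-8580663, plus strand: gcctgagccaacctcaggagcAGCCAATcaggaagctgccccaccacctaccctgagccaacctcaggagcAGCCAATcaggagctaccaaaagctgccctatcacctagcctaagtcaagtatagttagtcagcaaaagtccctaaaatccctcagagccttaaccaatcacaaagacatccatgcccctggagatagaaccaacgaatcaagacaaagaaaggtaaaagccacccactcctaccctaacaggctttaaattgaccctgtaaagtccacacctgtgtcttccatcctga
Rank 23, nearest start Gm42489, chr5:111644263-111644562, plus strand: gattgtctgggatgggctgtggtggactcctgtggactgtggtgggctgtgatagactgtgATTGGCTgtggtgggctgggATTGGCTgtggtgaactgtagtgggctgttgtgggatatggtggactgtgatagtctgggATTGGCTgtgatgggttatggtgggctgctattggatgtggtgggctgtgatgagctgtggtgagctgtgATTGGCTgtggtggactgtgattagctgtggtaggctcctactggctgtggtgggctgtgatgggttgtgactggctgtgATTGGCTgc

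At ranks 18, 22 and 23 the NFY letters occurred more than once in the window, in near-repeats of the surrounding bases, so the matches within such a member are not separate observations.

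At the level of the whole set, each member was cut in few nuclei and held few cuts. A member had between 49 and 477 cuts in the germ group (median 74) and between 20 and 368 in the rest (median 58), which came to a median of 29.1 CPM against 2.23 CPM. The ratio ran from 6.75 to 19.7 with a median of 9.03. The median member had a cut in 5.29% of germ nuclei and in 0.442% of the rest. Summed over germ and rest, the members held 100 to 845 cuts (median 130), while the median tested peak held 199, so the set lay near the lower limit of 100 cuts that the rule set.

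The largest ratio belonged to a peak at chr2:97901102-97901998, with 86 cuts in the germ group and 20 in the rest, in an intergenic stretch 433445 bp from the nearest gene start (Lrrc4c). The second lay in an intron on chromosome 18 and had 100 against 28 cuts. The third, on chromosome 4 in an intron 29757 bp from the start of Zfp988, a KRAB zinc finger gene, had 269 against 126 cuts. Of the 20 members with the largest ratios, 5 covered a gene start (Syce1, Sycp1, Foxr1, Figla and Gm21863), and the other 15 lay between 6645 bp (Glrx2) and 433445 bp from one. Examples of the latter were members 16324 bp from Egr4 (101 against 34 cuts), 43468 bp from Zfp715 (110 against 44), in an intron 77374 bp from the start of Sh3gl2 (90 against 32), 11621 bp from Abca16 (101 against 40) and 185998 bp from Eya1 (74 against 27). Of all tested peaks 26.2% lay within 1 kb of a start, so most peaks of any ratio lay farther. The member with the most cuts, at chr6:3182650-3183576 and 104943 bp from the nearest start, had 477 against 368 cuts and a cut in 28.3% of germ nuclei. Next by cuts came a member 4953 bp from Crlf2 (279 against 240), the one near Zfp988 and one at the start of Dscam, a neuronal adhesion gene (205 against 249). The others among the 10 with the most germ cuts lay 20632 bp from Trappc6b (200 against 277), at the start of Prr19 (181 against 176), 50306 bp from Gm42489 (178 against 106), 126600 bp from 5730507C01Rik (176 against 92), in an intron 72028 bp from 4930415C11Rik (166 against 216) and at the start of Rnf17, a Tudor-domain gene of germ cells (156 against 121).

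Just inside the limit, the members of ranks 498 to 500 lay near Trim17 (61 against 70 cuts), near Sec16b (59 against 67) and at the start of Bin2 (53 against 58). Just outside were peaks near Klhl24 (53 against 58, the same ratio of 6.75 as Bin2), Slain2 (92 against 117) and Gm15562 (51 against 55). The limit therefore separated peaks with equal values.

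Within the germ group and beyond it, the level at the members followed the rank of the nuclei in germ RNA. The 500 members together stood at 17288 CPM in the upper 350 nuclei of the germ group by rank and at 14967 CPM in the lower 350. In the next 300 nuclei they stood at 8032 CPM (95% limits 7897 to 8169), in the following 300 at 2820 CPM and past rank 1300 at 672 CPM (661 to 682). The level in the next 300 was 12 times (11.7 to 12.2) that of nuclei past rank 1300. Nuclei past rank 1300 supplied 22887189 of the rest's 25982169 peak cuts, so the choice of members favoured a low level there, while cuts in the next 300, also part of the rest, lowered a member's ratio. These levels are therefore a description. All 500 members were higher in the next 300 than past rank 1300, as were 39.0% of all tested peaks. In the following 300, 479 of 500 members were higher than past rank 1300, against 46.0% of all tested peaks. With both blocks of nuclei left out of the rest, the rule kept 257 of the 500 members.

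**Figure D1:**
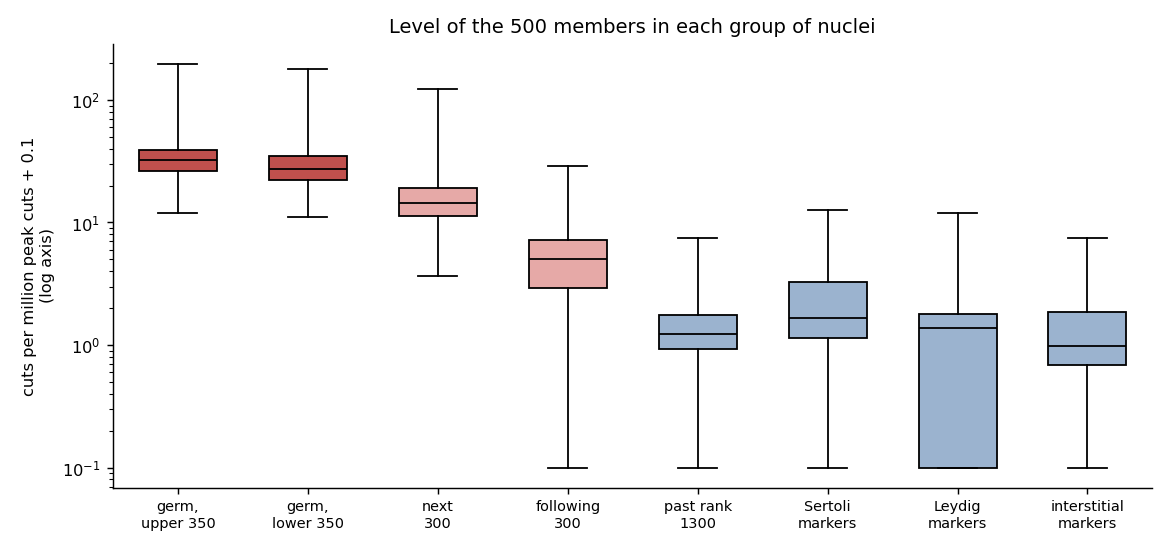
CPM of cuts (log axis, with 0.1 added) at each of the 500 members in 8 groups of nuclei: boxes span the middle of the members from the lower to the upper quartile, the line is the median and whiskers reach the lowest and highest member. The medians step down from the germ group through the next 300 (14.3) to nuclei past rank 1300 (1.14), and the Sertoli, Leydig and interstitial groups, which here take nuclei of any rank after the germ group, lie near the last.

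Inside the germ group the levels varied little. The upper 350 nuclei stood at 1.16 times (1.13 to 1.18) the lower 350, with 323 of 500 members higher against 44.3% of all tested peaks. The cuts of both parts together took part in the choice of members, so these values are a description. When the germ group was parted by its UMI share of 19 cell-cycle genes, the 350 nuclei with more of these UMIs had 0.980 times (0.961 to 0.999) the level of the 350 with fewer, and 235 of 500 members were higher, against 45.6% of all tested peaks. The members thus had nearly the same summed level in both parts.

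In somatic nuclei the members were low but not empty. Among nuclei past rank 1300, the 585 picked by Sertoli markers had 1.37 times (1.30 to 1.44) the level of the others, with 282 of 500 members higher against 42.3% of all tested peaks. Those picked by Leydig markers had 1.11 times (1.04 to 1.19), by interstitial markers 0.874 times (0.833 to 0.917) and by surface epithelium markers 1.23 times (1.13 to 1.33) the level of the others. The endothelial and immune groups held only 55 and 43 nuclei, and their values of 1.36 (1.13 to 1.62) and 1.34 (1.08 to 1.65) rested on 126 and 91 cuts. Pecam1 and Cx3cr1, which helped pick these groups, were also higher in the germ group than in the rest, and their part in these values was not tested. The counts of members did not follow these ratios in every group: 219 of 500 were higher in the Leydig group against 40.5% of tested peaks, 194 against 48.5% in the interstitial, 200 against 42.0% in the surface epithelial, 61 against 32.9% in the endothelial and 47 against 26.4% in the immune group. In the last 3 groups the summed level was thus above that of the others, while fewer members were higher than the share of tested peaks would give. Only 93 members had a cut in endothelial nuclei of any rank and 48 in immune nuclei. The numbers were 227 in surface epithelial, 282 in Leydig, 417 in interstitial and 423 in Sertoli nuclei. A member without a cut cannot be higher, so depth bounds these counts. In the endothelial and immune groups they describe no pattern of the members, and depth also limits those of the surface epithelial and Leydig groups. The part of free DNA or of nuclei caught together in these levels was not tested. For scale, 500 peaks ranked in the same way for 615 Sertoli nuclei are called Sertoli-ranked peaks below. They stood at 12208 CPM in Sertoli nuclei and 1114 CPM in the germ group, levels that took part in their choice. Among them were 0 members. Each set is 0.759% of all tested peaks and was ranked against nuclei that held the other group, so a low overlap follows from the ranking.

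Each germ nucleus had a cut in at least 2 members. The median germ nucleus had a cut in 27 members (highest 105), and 1.64% of its peak cuts fell in them. In the next 300 the median was 24 members and 0.867% of cuts, in the following 300 it was 2 members and 0.0855%, and past rank 1300 it was 1 member and 0.0491%. Past rank 1300, 2334 of 6192 nuclei had no cut in any member. The share of cuts that 95% of germ nuclei reached (0.919%) was reached by 46.7% of the next 300, by 5.33% of the following 300 and by 0 of 6192 past rank 1300. The next 300 thus held nuclei on both sides of that value. The 95% of germ nuclei follows from how the value was set. The cuts of all these nuclei also took part in the choice of members, so these values are a description.

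Around the centre of the members the cuts formed a peak that was steepest in germ nuclei and much lower past rank 1300 and in Sertoli nuclei. At members within 1 kb of a gene start, the 200 central bases held per 50 bp 21.1 times the cuts of the flanks 800 to 1000 bp away in the germ group. The value was 13.6 times in the next 300, 7.84 times in the following 300, 2.38 times past rank 1300 and 2.82 times in Sertoli nuclei past rank 1300. At members away from starts these values were 20.2, 14.4, 6.77, 1.96 and 2.35. Sertoli-ranked peaks gave 14.6 in Sertoli nuclei and 1.98 in the germ group. The cuts of these nuclei also chose both sets of peaks, so these contrasts are a description.

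**Figure D2:**
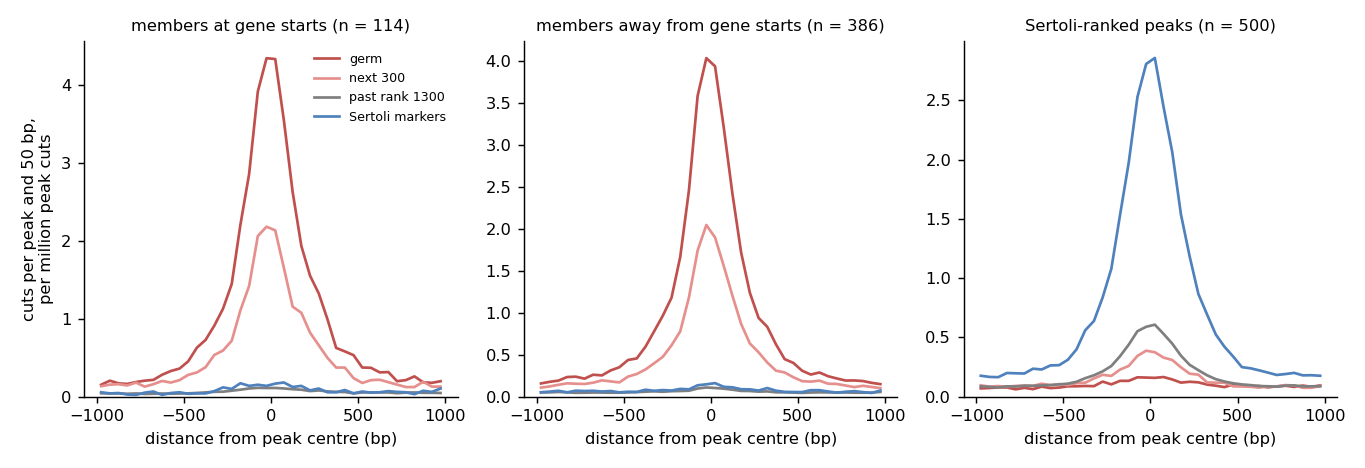
Cuts per peak in bins of 50 bp, scaled to the CPM of each group, against the distance from the peak's centre (bp), for 114 members at gene starts, 386 members away from them and 500 Sertoli-ranked peaks. The red line (germ) and the pink line (next 300) rise at the members, while the grey line (past rank 1300) and the blue line (Sertoli nuclei past rank 1300) rise far less, to 2.38 and 2.82 times the flanks at gene starts.

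Most fragments gave 2 cuts in the same member, 1.89 on average over the median member, so the intervals above are too narrow. Counted as fragments, members had 25 to 249 in the germ group (median 39) and 10 to 195 in the rest (median 31), and 486 of the 500 were also among the 500 largest fragment ratios. Fragments at the members had a median length of 95 bp in the germ group, 105 bp in the rest and 110 bp in Sertoli nuclei. Of the germ fragments 64.2% were shorter than 150 bp, about the length of DNA around a nucleosome, against 60.7% in the rest and 57.8% in Sertoli nuclei. At tested peaks that were neither members nor Sertoli-ranked the order was the opposite, with 60.5% in the germ group and 67.3% in the rest. Sertoli-ranked peaks gave 69.7% in Sertoli nuclei, 65.3% in the rest and 48.6% in the germ group. Shorter fragments in the nuclei that a set was ranked for were thus not particular to the members.

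By position the members fell into 114 that lay within 1 kb of a gene start (22.8%, 95% limits 19.2 to 26.7) and 386 that lay farther. These limits treat the members as independent draws, although some were aligned copies of one another. Of all tested peaks 26.2% lay within 1 kb of a start, and of the Sertoli-ranked peaks 4.2%. Peaks at starts hold more cuts than others, so the share was also read among peaks of like totals. With 100 up to 150 cuts in all, 17.0% of 341 members lay at starts against 7.05% of 21267 tested peaks. With 150 up to 200 cuts the shares were 30.7% of 101 and 10.6% of 11801, and with 200 up to 300 cuts 46.0% of 50 and 16.1% of 11753. With 300 or more cuts the order was the opposite, 25% of only 8 members against 60.04% of 21023 tested peaks. Members were thus at starts more often than tested peaks in the 3 lower ranges of cuts, but not in the highest or over all peaks. With a minimum of 300 cuts in place of 100 the rule picked other peaks, 71.8% of them at starts against the same 60.04%, and kept only 8 of these members.

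**Figure D3:**
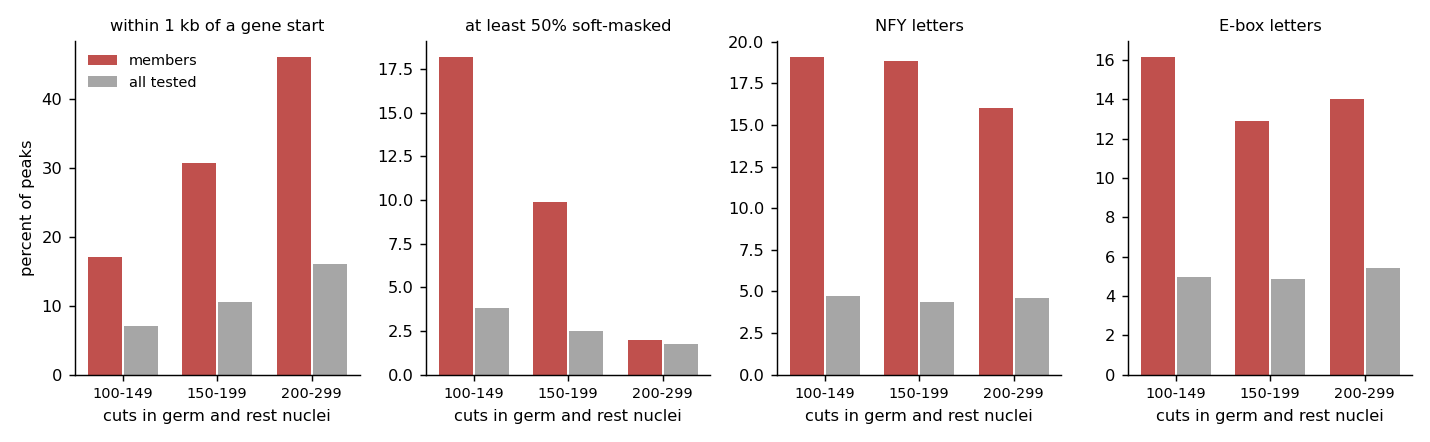
Percent of members (red) and of all tested peaks (grey) that lay within 1 kb of a gene start, were at least 50% soft-masked, or held the NFY or E-box letters, by the number of cuts in germ and rest nuclei together. In each of the ranges 100 up to 150, 150 up to 200 and 200 up to 300 the members lie above the tested peaks for starts and for both motifs, and at 200 up to 300 cuts the masked shares are close (2.0% and 1.75%).

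By annotation at the centre, 229 members (45.8%) were intergenic, 199 (39.8%) were in introns, 31 (6.2%) were in coding exons, 31 (6.2%) in untranslated regions and 10 (2%) in noncoding exons. All tested peaks were 40.1% intergenic, 43.9% intronic, 3.72% in coding exons, 10.1% in untranslated regions and 2.21% in noncoding exons. The farthest 76 members (15.2%) lay beyond 50 kb of any start, against 18.9% of all tested peaks. The nearest start belonged to a gene named Zfp, for zinc finger protein, at 14 members (2.8%) against 1.16% of tested peaks. These 14 were not all separate sequences: those near Zfp936 and Zfp977, and those near Zfp987, Zfp988 and Zfp989, were aligned copies.

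The genes at whose starts the members lay were higher in germ RNA. A member lay within 1 kb of the start of 125 genes, of which 104 had the 20 or more UMIs needed for a value. Of these 96 (92.3%) were at least 2-fold higher in the germ group than in the rest, against 15.4% of 19446 genes, and 0 were at least 2-fold lower, against 17.9%. Their median log2 ratio (1 CPM added to each side) was 2.74, against 0.03 for all genes, and 41 of the 104 were 8-fold or more higher. RNA and cuts come from the same nuclei, and the choice of nuclei used 4 of these genes (Ddx4, Mael, Stk31 and Sycp1): without them 92 of 100 were at least 2-fold higher. With the minimum of 300 cuts, 51.4% of the genes at the starts of the peaks then chosen were at least 2-fold higher.

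The 789 genes that had a member within 50 kb but none at the start showed a smaller share. Of the 546 with a value, 24.4% were at least 2-fold higher in the germ group and 11.9% at least 2-fold lower, against 14.7% and 17.8% of genes with any tested peak in that reach, and their median log2 ratio was 0.25.

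The largest RNA ratio among genes with a member at the start was that of Sycp1, with 1537 CPM of RNA in the germ group and 89.9 in the rest. Mael, which acts in piRNA processing, had 243 against 15.5, Ankrd31, needed for meiotic breaks, 552 against 37.5, and Asz1, a piRNA factor at mitochondria, 324 against 22.1. Topaz1, a germ-specific gene of spermatogenesis, had 196 against 13.6 and Rnf212, which stabilises crossover sites in meiosis, 92.0 against 6.35. In the next 300 Sycp1 had 776 and past rank 1300 4.15 CPM of RNA, so most of the rest's UMIs of this gene came with the next 300. The others of the 15 largest ratios were 4930467D21Rik, Ccdc172, Tdrd9, Tdrd12, D030068K23Rik, CN725425, 4933425L06Rik, Stk31 and Btbd18.

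Among the 104 genes with a value, 3 had less RNA in the germ group than in the rest, none of them by 2-fold. The lowest was Gm16599, a noncoding gene, with 267 UMIs in the germ group and 2529 in the rest (23.7 against 37.3 CPM of RNA). Figla, a bHLH factor of the oocyte, had a member of rank 16 at its start (99 against 44 cuts) but only 5 germ and 6 rest UMIs, too few for a value.

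Of 6 lists of germ genes with 101 genes in the data, 76 had a tested peak at the start, and 26 of these (34.2%) had a member there, against 125 of 17188 (0.727%) of all genes with a tested start peak. All 25 of them with enough UMIs were at least 2-fold higher in germ RNA, and 4 of these were among the genes that chose the nuclei. The lists were chosen with earlier results of these data known, so these counts are descriptions.

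Of 26 meiosis genes, 21 had a tested peak at the start and 11 a member. In the synaptonemal complex, Syce1 had 118 germ against 49 rest cuts, Sycp1 134 against 63, Syce3 106 against 64 and Tex12 91 against 58, while the axis proteins Sycp2 and Sycp3 had 132 against 123 and 89 against 75. Hormad2, which binds unsynapsed axes, had 111 against 111, Rec114 79 against 41, Msh4, a crossover factor, 110 against 140, Terb2, which ties telomeres to the nuclear envelope, 66 against 52, and Meioc, which keeps the meiotic programme running, 114 against 96. RNA of these genes was higher in the germ group by log2 ratios between 1.77 (Syce3, 48 germ UMIs) and 4.08 (Sycp1). Stra8, the gene that starts meiosis in response to retinoic acid, had 14 germ and 10 rest UMIs and no tested start peak.

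Of 20 piRNA genes, 16 had a tested peak at the start and 7 a member, with RNA log2 ratios from 3.30 to 3.89. These were Mov10l1, the helicase that feeds precursors to PIWI proteins (91 against 47 cuts), Asz1 (92 against 54), Mael (121 against 89), Fkbp6 (105 against 82), Tdrd12 (113 against 95), Piwil2, the PIWI protein MILI (134 against 123), and Tdrd9 (58 against 43). Piwil4, the nuclear PIWI protein of prospermatogonia, had no tested peak at the start although its RNA was higher by 3.61.

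Among 10 germ RNA-binding genes, 9 of them with a tested start peak, Stk31 (139 against 95) and Ddx4, the germ helicase Vasa (142 against 119), had members at their starts. Of 16 spermatogonial and other germ genes, 13 with a tested start peak, 5 did, Figla, Tex19.1 (110 against 68), which guards against transposons, Slc25a31 (125 against 106), an ADP/ATP carrier of germ cells, Sohlh2 (74 against 65), a bHLH factor of spermatogonia, and Tex101 (67 against 69), a surface protein of germ cells. Of 19 pluripotency genes only 8 had a tested start peak, and of these Lin28a, which binds let-7 precursors, had a member (87 against 100). Of 10 DNA methylation genes, 9 with a tested start peak, 0 had a member. In germ RNA 3 of the 10 were at least 2-fold higher and 3 at least 2-fold lower, against 15.4% and 17.9% of all genes with a value.

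A germ-enriched RNA did not need a member at its start. Of 49 listed genes with a tested start peak, enough UMIs and no member there, 30 were at least 2-fold higher in germ RNA. Of all genes with a tested start peak and a value, 13.4% were. In 14 of the 30 the start peak had a ratio under 2. Dazl, Dnd1 and Tex14 were among the genes that chose the nuclei, and without them these counts were 27 of 46 and 12. Stag3, a meiotic cohesin, had a log2 RNA ratio of 2.91 and a start peak with 252 germ and 1690 rest cuts (99.0 against 65.0 CPM, ratio 1.51). Spo11, which makes meiotic breaks, had 3.07 and a start peak that was lower in the germ group, with 15 against 209 cuts (5.90 against 8.04 CPM, ratio 0.763). Of the genes that chose the nuclei, Dazl, a germ RNA-binding protein, had a start peak with 137 against 858 cuts (ratio 1.61), and Tex14, which keeps the bridges between germ cells open, one with 160 against 1301 (1.25).

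**Figure D4:**
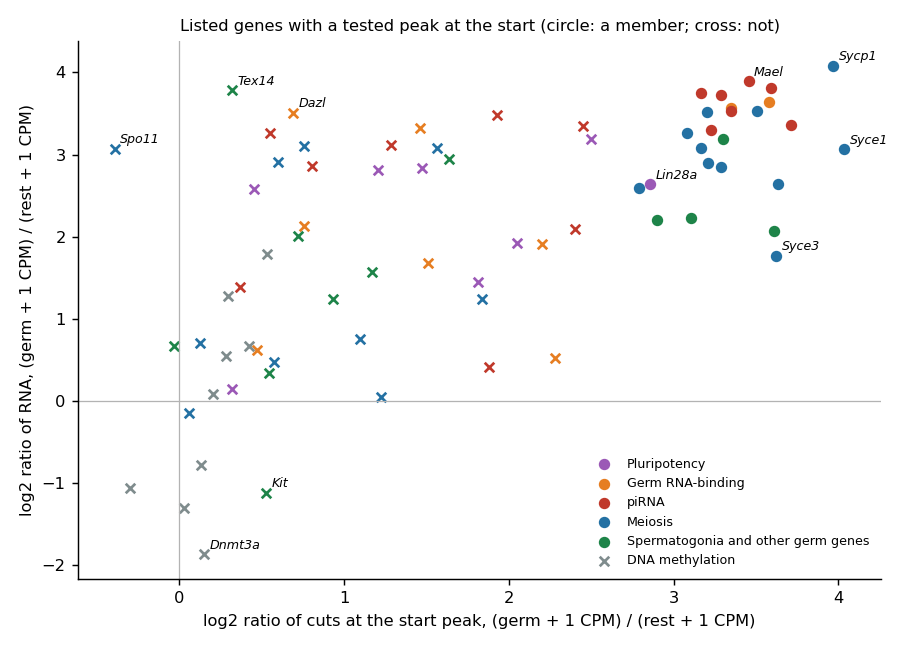
Log2 ratio of RNA (germ over rest, 1 CPM added) against log2 ratio of cuts at the start peak (1 CPM added) for the listed genes with a value on both axes, with 25 members as circles and the other 49 genes as crosses, coloured by list. The circles lie at the right by the choice of members, and all lie at a log2 RNA ratio of 1.77 or more. Crosses such as Spo11, Tex14 and Dazl reach log2 RNA ratios above 3 with a log2 cut ratio under 1. RNA of Tex14 and Dazl helped choose the nuclei.

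In sequence, the 300 central bases of the members had a median GC content of 54.3%, against 52.3% for all tested peaks. Members away from starts had 53.0% against 50% and an observed over expected ratio of CpG of 0.314 against 0.239, while Sertoli-ranked peaks away from starts had 0.165. Members at starts were lower than their counterparts, with 61.3% against 64.7% GC and a CpG ratio of 0.593 against 0.773. These values at starts were not read among peaks of like totals. Over all positions, median GC was 53.0% against 48.7% with 100 up to 150 cuts and 56.7% against 50.3% with 150 up to 200. It was 62.8% against 51.7% with 200 up to 300 cuts, and 61.5% (8 members) against 61.7% with 300 or more.

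Repeats made up a larger part of the members. In 73 (14.6%, 11.6 to 18) at least 50% of the central bases were soft-masked in the genome file, the mark of known repeats, against 2.17% of all tested peaks and 2.8% of Sertoli-ranked peaks. With 100 up to 150 cuts the shares were 18.2% of members and 3.80% of tested peaks, with 150 up to 200 cuts 9.90% and 2.49%, and with 200 up to 300 cuts 2.0% and 1.75%. The excess was therefore in members with few cuts, and with the minimum at 300 cuts 0.6% of the peaks chosen were so masked, against 0.571% of tested peaks with as many cuts. Which repeats these are was not tested, since the files used here hold no repeat names. Reads from near-identical copies can be placed at the wrong copy, and their part in these values was not tested.

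Aligned to one another over at least 200 bases at 80% identity or more, 84 members (16.8%) fell into 19 families, against 6 (1.2%) of the Sertoli-ranked peaks that aligned to another of their set. The largest family had 17 members on 13 chromosomes, with a median identity of 84.4%. A further 32 tested peaks aligned to it, with a median germ over rest ratio of 0.893, 15 of them had a ratio above 1, and 9 a ratio of 2 or more. Peaks that aligned to the same family thus lay on both sides of an equal level. Family 3, with 6 members on chromosome 12 that included ranks 5, 13 and 20, had 25 further tested peaks (median ratio 1.80). Family 4 had 6 members and 68 further tested peaks (median ratio 0.821).

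Some families held no other tested peak or lay in clusters of zinc finger genes. Family 6 had 6 members on chromosome 7, and 5 of them lay within 1 kb of a start (Zfp936, Zfp977, Gm6871, EU599041 and Gm17768). Zfp936 had 109 germ and 67 rest cuts at its start and 102 against 7.68 CPM of RNA, and Zfp977 had 43.9 against 10.6 CPM of RNA. Family 9 had 4 members on chromosome 4, near Zfp987, Zfp988, Zfp989 and Gm13212, with 93.7% identity. In the next 300 the level over nuclei past rank 1300 was 59.7 times for family 6, 35.5 times for family 5, 24.3 times for family 3, 16.1 times for the largest family and 9.73 times for family 4.

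Family 5 had 6 members on 5 chromosomes, no further tested peak, and windows that were masked over a median of 99.5% of their bases with 63.0% GC. It held rank 1, and all 6 lay between 20987 and 433445 bp from the nearest gene start. Together they had 146 cuts in the next 300 and 56 past rank 1300. The stretch of 120 bases that the 6 share is shown, from GRCm38.p6, because copies on different chromosomes were open in germ nuclei. Capitals mark bases that differ from the copy of rank 24, inserted bases included, and deleted bases are not shown.
Rank 24, the copy the others are set against, chr14:37393830-37393949, plus strand: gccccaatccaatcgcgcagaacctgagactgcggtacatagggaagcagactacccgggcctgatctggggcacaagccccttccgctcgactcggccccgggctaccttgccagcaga
Rank 1, chr2:97901371-97901492, minus strand: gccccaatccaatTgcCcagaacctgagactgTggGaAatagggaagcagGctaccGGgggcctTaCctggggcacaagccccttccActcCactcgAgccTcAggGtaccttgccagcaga
Rank 47, chr17:23245458-23245578, plus strand: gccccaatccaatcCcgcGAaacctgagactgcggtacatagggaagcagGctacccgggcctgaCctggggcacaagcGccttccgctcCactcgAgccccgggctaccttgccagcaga
Rank 69, chr5:15011504-15011624, plus strand: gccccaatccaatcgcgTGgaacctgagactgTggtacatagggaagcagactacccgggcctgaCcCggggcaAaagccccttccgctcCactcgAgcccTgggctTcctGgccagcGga
Rank 93, chr5:42704188-42704307, plus strand: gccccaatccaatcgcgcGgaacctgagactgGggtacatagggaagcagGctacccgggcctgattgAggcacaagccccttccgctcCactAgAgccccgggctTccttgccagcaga
Rank 428, chr13:77951378-77951498, minus strand: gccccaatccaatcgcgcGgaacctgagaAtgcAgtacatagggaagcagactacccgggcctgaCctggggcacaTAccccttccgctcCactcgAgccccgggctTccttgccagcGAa

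Over these 120 bases the copies were identical to that of rank 24 at 93.3% of positions for rank 47, 92.5% for rank 93, 90.8% for rank 428, 90.0% for rank 69 and 86.7% for rank 1. The longest runs of bases found in all 6 were of 13 and 12 bases, and their cuts ran from 53 against 51 (rank 428) to 86 against 20 (rank 1).

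Of 17 motifs searched on both strands of the 300 central bases, the KLF/SP letters (30.8% of members against 26.6% of tested peaks) and the letters AGGTCA of nuclear receptors (20.8% against 21.1%) were the most frequent, and the NFY and E-box letters had the largest excess in percentage points. CACGTG was in 76 members (15.2%) against 6.21% of all tested peaks, and AGCCAAT in 93 (18.6%) against 5.84%. At least 1 of these motifs was in 148 members (29.6%) against 11.6% of tested peaks, and both were in 21 (4.2%) against 0.448%. At starts the E-box shares were 21.9% of members and 9.33% of tested peaks and the NFY shares 22.8% and 9.05%. Away from starts they were 13.2% and 5.10% for the E-box and 17.4% and 4.69% for NFY, and in Sertoli-ranked peaks 3.55% and 2.71%. The excess also varied with GC content away from starts. Between 40 and 50% GC the E-box was in 6 of 95 members (6.32%) against 4.09% of tested peaks and NFY in 15 (15.8%) against 5.02%, while between 50 and 60% GC the E-box was in 41 of 219 (18.7%) against 6.01% and NFY in 51 (23.3%) against 4.58%.

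The shares were also read by cuts and by family. In the ranges of 100 up to 150, 150 up to 200 and 200 up to 300 cuts, 19.06%, 18.8% and 16% of members held the NFY letters against 4.73%, 4.37% and 4.61% of tested peaks. For the E-box they were 16.1%, 12.9% and 14.0% against 4.97%, 4.86% and 5.40%. Away from starts the shares fell over these ranges, from 14.8% through 10% to 3.70% for the E-box, the last below the share in tested peaks (4.998%), and from 18.7% through 15.7% to 11.1% for NFY, against 4.65%, 4.26% and 4.55%. In the last range these shares rest on 1 and 3 of 27 members. Among the 416 members in no family 19.95% held the NFY letters and 16.1% the E-box, and among the 84 in a family 11.9% and 10.7% did. With the minimum of 300 cuts the NFY share was 6.8%, below the 8.46% of tested peaks with 300 or more cuts.

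Other motifs were read at starts and away from them. The NRF1 letters GCGCATGCG were in 9.65% of members at starts against 2.74% of tested peaks there, and in 1.81% against 0.296% away from starts. The E2F letters TTCCCGC were in 15.8% against 8.54% at starts and in 3.89% against 1.93% away from them. Among members in no family they were in 17.3% at starts, but away from starts in only 6 of 318 (1.89%), close to tested peaks. The octamer ATGCAAAT of POU factors was in 3.63% against 1.57% away from starts, or 14 members, and in 2.63% against 1.23% at starts, or 3 members. The ETS letters CCGGAAG were in 5.96% against 2.54% away from starts and in 14.0% against 14.1% at starts. The KLF/SP letters GGGCGG were in 25.6% against 13.5% away from starts and in 48.2% against 63.6% at starts. None of these shares at starts was read among peaks of like totals of cuts.

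Away from starts, the letters of NR5A and GATA factors were rarer in the members than in tested peaks. Those of SOX and DMRT factors were more frequent than in tested peaks and rarer than in Sertoli-ranked peaks. CAAGGTCA, read by NR5A1, the steroidogenic factor SF1, was in 1.81% of members away from starts, 7.09% of tested peaks and 21.9% of Sertoli-ranked peaks there. AGATAAG, read by GATA factors such as GATA4, was in 2.07%, 6.06% and 13.4%. At starts CAAGGTCA was in 2 members (1.75%) against 1.46% of tested peaks and AGATAAG in 3 members (2.63%) against 1.63%. The letters AGGTCA, which CAAGGTCA contains, were in 20.7%, 24.7% and 37.6% away from starts, but at starts in 24 members (21.1%) against 10.97% of tested peaks. Of the 98 members at starts in no family, 14 (14.3%) held them. Away from starts the SOX letters ACAATG were in 16.1%, 12.6% and 31.3%, and the DMRT letters ACATTGT, whose reverse complement holds the SOX letters, in 6.74%, 3.57% and 10.4%. Both families have members in germ and in somatic cells: Dmrt1 had 196 CPM of RNA in the germ group against 65.5 in the rest and Sox2 28.7 against 3.14, while Sox9, a Sertoli factor, had 3.64 against 12.4. A match of letters is not a bound site.

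**Figure D5:**
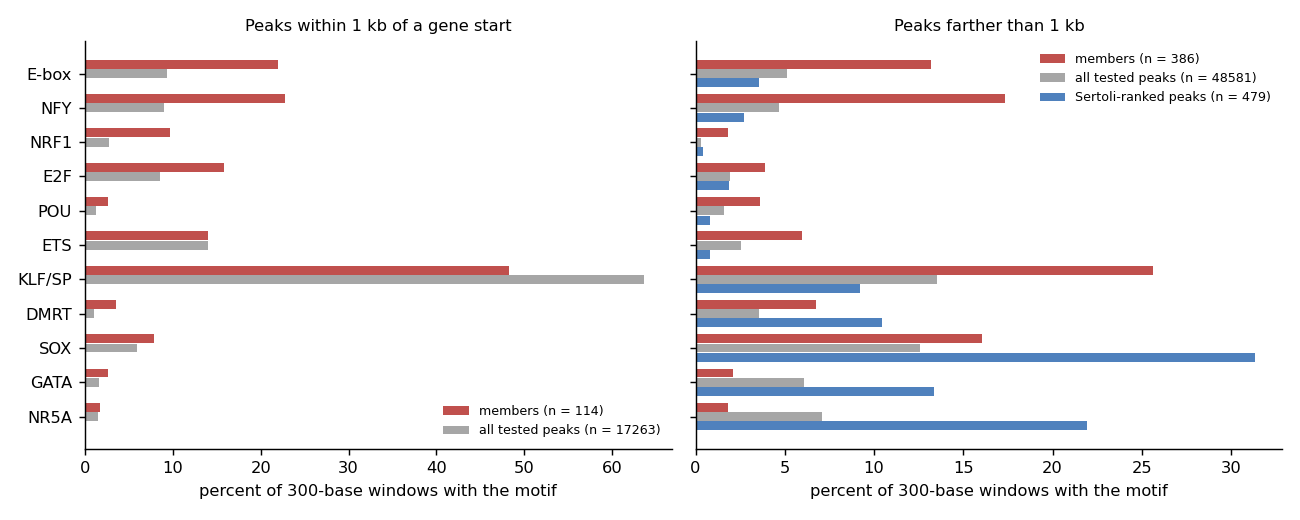
Percent of the 300 central bases that hold each motif on either strand, for members (red) and all tested peaks (grey) within 1 kb of a gene start, and for members, tested peaks and Sertoli-ranked peaks (blue) farther away, with bars that start at 0. Among the motifs drawn, the red bars exceed the grey ones by the most for NFY and E-box at starts and for NFY and KLF/SP farther away, and the blue bar is the longest of the 3 for SOX, NR5A, GATA and DMRT.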

How the data were processed

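Nuclei of whole E14.5 testes were profiled on the 10x multiome platform, which gave 1 library of RNA and 1 of open chromatin from shared nuclei. The deposited matrix holds raw counts per nucleus, UMIs for 32285 genes and Tn5 cuts for 109215 peaks, which the authors made with Cell Ranger ARC 2.0.1 on mm10, calling peaks over all nuclei together. A deposited fragment file gave cut positions and lengths. Peak counts rebuilt from fragment ends equalled the matrix at 100% of tested peaks.

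Members, peak and gene lists, the rule for named items (the 20 largest ratios, the 10 members with most germ cuts, list genes, the limit, the 15 largest RNA ratios) and motifs were chosen with earlier results of these data known. Germ nuclei were ranked by RNA, cuts were summed per group, and no doublets were removed. Nuclei of other types were the leading ones by their markers, without the 119 picked by 2 lists. Each assay had 1 library, so no test was run. Limits are exact (Clopper-Pearson or Poisson). For sums of cuts they cover counting error only and treat cuts as independent, which paired cuts are not. For shares of members they treat members as independent draws, which the 84 aligned members are not. Depth was 2544175 peak cuts in germ nuclei and 25982169 in the rest. RNA values needed 20 UMIs in all, and folds were taken on CPM plus 1. Positions came from GENCODE vM21 basic, on which 32158 genes had a start, and sequences from GRCm38.p6. Members were aligned with blastn 2.17.0 (megablast, word size 20). Python 3.11.15, numpy 2.4.6, scipy 1.17.1, pandas 2.3.3 and pysam 0.24.0 were used. The member and ratio steps were checked on simulated data. Alternatives changed the number of germ nuclei, the constant added to CPM, the least cuts, the counting unit, the nuclei kept, the distance and the window.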

Additional observations from a re-analysis of the deposited data

How the results depend on the processing

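The members depended most on the least number of cuts. With at least 50 cuts 236 of the 500 were kept, and the median GC content was 53.0%. With at least 300 cuts 8 were kept, 71.8% of the peaks lay at starts, GC was 71.3%, the median log2 RNA ratio of genes at their starts was 1.11 and 51.4% of these genes were past 2-fold. Counting nuclei with a cut, with a minimum of 100 nuclei, kept 62, with 52.0% at starts, GC 67.7%, a log2 ratio of 1.43 and 61.1% past 2-fold. When the minimum of 100 cuts was kept beside it, an alternative chosen after seeing the data, 479 were kept. Leaving nuclei after the germ group down to rank 1300 out of the rest kept 257, with 30.0% at starts, GC 57.3% and a log2 ratio of 3.11. Adding 10 CPM gave 31.0% at starts, GC 57.0% and 84.4% past 2-fold. With 500 germ nuclei 85.1% were past 2-fold, and with 1000 the log2 ratio was 3.46.

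A distance of 5 kb put 31.8% of the members at starts, 0.1 CPM added to RNA gave a log2 ratio of 3.13, and whole peaks had a GC content of 50.7%. Scaled by fragments in all, the level in the 300 nuclei after the germ group was 10.0 times that past rank 1300, in place of 12 times. Thinned to 1000 cuts, the cell-cycle parts of the germ group stood at 0.948. CACGTG was in 11.2% of members over 200 bases and in 24.8% over whole peaks. The share with 50% or more masked bases ran from 0.6% to 25% over 11 alternatives and the NFY share from 6.8% to 21.0% over 10, all chosen after seeing the data.

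No paired analysis was possible because each assay had 1 library, and none was left out as a replicate. A member held a median of 74 germ cuts, so single members are uncertain and the order of ranks is not fixed by these data. Copies of repeats, free DNA and nuclei caught together were not removed.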

Other observations

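The rule was confined to autosomes. On the X chromosome 1184 peaks held 100 or more cuts, and 8 of them (0.676%) had a ratio past the limit of 6.75, close to the 0.759% of autosomal peaks that were members. The median ratio was 0.774 on the X chromosome and 0.694 on the autosomes. The largest, intergenic and 222712 bp from Slitrk2, had 77 germ and 33 rest cuts. A peak at the start of AU022751 had 79 against 38 cuts, one 8823 bp from Tsx, a testis-expressed gene beside Xist, had 82 against 41, and one at the start of Usp26, a ubiquitin protease of the testis, had 64 against 41.

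The DNA methylation genes, none with a member at the start, differed in both directions in RNA. Dnmt3a, a de novo methyltransferase, had 64.7 CPM of RNA in the germ group and 239 in the rest, Uhrf1, which brings the maintenance enzyme to replicated DNA, 10.2 against 26.6, and Dnmt3b 7.19 against 16.1. Tet1, which oxidises methylated cytosine, had 345 against 99.3, Dnmt3c, the rodent enzyme that methylates young transposons, 4.62 against 1.12 and the cofactor gene Dnmt3l 2.40 against 0.398. At the starts of Dnmt3a, Uhrf1 and Dnmt3b the ratios of cuts were 1.11, 1.02 and 0.814.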
